A study of Mus musculus with 6 samples.

Results

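The Hippo pathway was described in adult mouse ventricles through 10 of the 18158 genes of the deposited table, chosen by symbol: the kinases Stk3, Stk4, Lats1 and Lats2, the adaptor Sav1, the transcriptional coactivators Yap1 and Wwtr1, their DNA-binding partner Tead1, and the target genes Ctgf and Cyr61, which are listed under these older symbols for Ccn2 and Ccn1. Ventricles were taken from 6 mice of the outbred CD1 stock at an age of 3 months, and their mRNA was sequenced, 1 library per mouse with 76 bp reads. In the Paro/Neo group, 3 mice were injected intraperitoneally 2 times a day for 14 days with the aminoglycoside antibiotics paromomycin and neomycin at 150 mg/kg. In the vehicle group, 3 mice received injections of PBS over the same 14 days. Per the design text, the comparison concerns gene expression where the drugs suppress Meis1 and Hoxb13, transcription factors that restrain division of heart muscle cells. The mRNA level of Meis1 in these hearts is given at the end. Levels are in TPM (a share of each library's transcripts, corrected for their length), so they can be compared between genes.

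In the Hippo pathway, Stk3 and Stk4 with their adaptor Sav1 activate Lats1 and Lats2, which phosphorylate Yap1 and Wwtr1 (also called TAZ) and so keep them out of the nucleus. Unphosphorylated Yap1 and Wwtr1 enter the nucleus and bind TEAD factors such as Tead1, which recruit them to genes such as Ctgf and Cyr61. In the mouse heart the pathway limits growth, and loss of Sav1 or activation of Yap1 in cardiomyocytes is known to raise their proliferation. Most of this control acts on the proteins, by phosphorylation and location, and was not measured here.

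The mRNA of the pathway was expressed in every heart, and none of its 10 genes passed the threshold between the groups. By limma on log2(TPM + 1), with Benjamini-Hochberg adjustment over 12409 tested genes, 0 of 10 members had an adjusted p under 0.05, where 0.137% of all tested genes did (0.121% higher and 0.0161% lower in Paro/Neo hearts). At an unadjusted p under 0.05 it was also 0 of 10, where 7.61% of all tested genes passed (3.24% higher and 4.37% lower in Paro/Neo hearts). The adjusted p of the members ran between 0.657 for Cyr61 and 0.953 for Lats2. The median absolute log2 change of the members was 0.18, beside 0.12 over all tested genes. Of the 10 members, 8 had a log2 change below 0, where 53.7% of all tested genes did, and 2 had one above 0, with a median of -0.14 beside -0.02 over all tested genes. The 95% confidence interval of the change lay within 2-fold for 10 of 10 members (93.9% of all tested genes) and within 1.5-fold for 8 of 10 (70.7% of all tested genes), Ctgf and Cyr61 being the exceptions. The groups did not overlap for 3 of 10 members, Stk3 and Tead1 being lower and Sav1 higher in Paro/Neo hearts, where 14.3% of all tested genes did not overlap (8.22% lower and 6.04% higher in Paro/Neo hearts). Without Paro/Neo replicate 1, 3 of 10 members had a change above 0 and 7 below, with a median of -0.10, and 0 passed. There 1 member, Stk3, had an unadjusted p under 0.05, as did 905 of 12409 tested genes. Since 3 hearts against 3 cannot give an exact permutation p below 0.10, no such test is reported.

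The ventricular myosin light chain Myl2 was at 51694 to 69835 TPM in Paro/Neo hearts and 55269 to 58925 TPM in vehicle hearts, so ventricular muscle was present. No atrial marker was read, so absence of atrial tissue was not tested. The depth inferred from the TPM values was 12421206 to 15575723 reads per library in Paro/Neo hearts and 9556387 to 15969980 in vehicle hearts. Each member rested on 258 to 2987 reads per library, so the counting error was at most 6.23% of a value. Paro/Neo replicate 1 stood apart: its mean correlation with the other libraries was 0.9755 (Pearson, across genes), against 0.9814 to 0.9853. Its deviations from the gene means also followed the GC content of transcripts, with a Spearman coefficient of -0.33 across 12322 genes, against -0.118 to 0.293 in the other libraries. Values without it are given for lists and for some members. They are not given for single genes of the other lists that lean on it, such as Mob1b, Slmap, Ccdc80 and Sgcd. In bulk tissue, fewer cells of a type and less RNA per cell cannot be told apart.

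**Figure D1:**
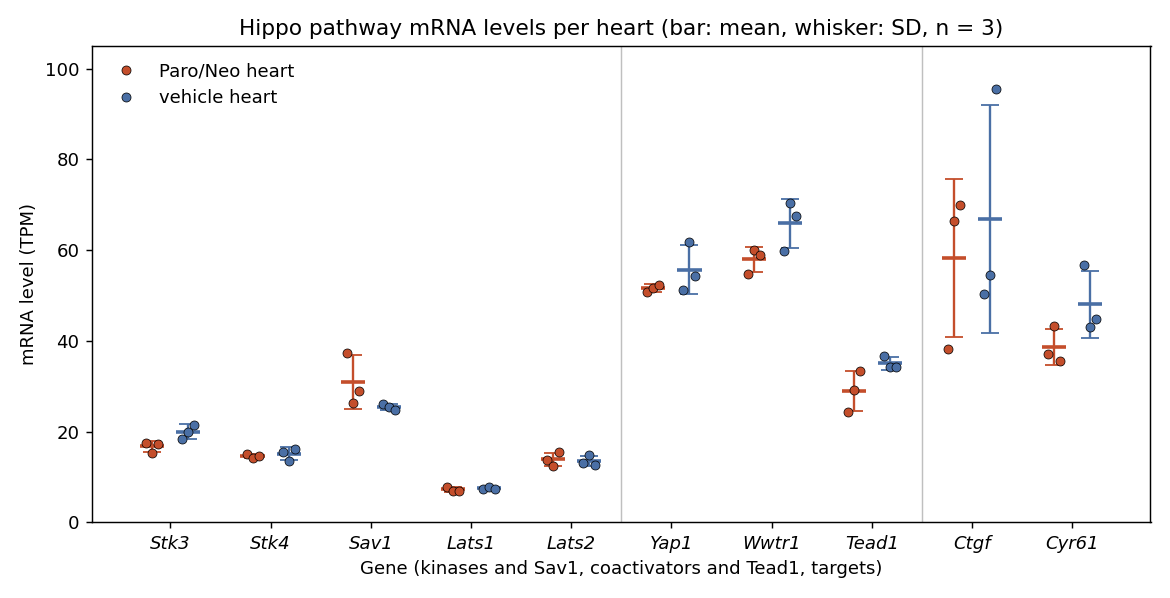
Levels in TPM of the 10 genes (y axis) by gene (x axis, in the order kinases with Sav1, coactivators with Tead1, targets), Paro/Neo hearts left in red and vehicle hearts right in blue; points are hearts, bars means and whiskers SD (n = 3 each). Most pairs of groups overlap, and the hearts spread most in Ctgf, between 38.2 and 95.6 TPM.

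By level, the targets and coactivators stood highest and the Lats kinases lowest. Over all 6 hearts Ctgf averaged 62.5 TPM, Wwtr1 61.9, Yap1 53.6, Cyr61 43.4, Tead1 32.0, Sav1 28.1, Stk3 18.3, Stk4 14.8, Lats2 13.7 and Lats1 7.34 TPM. Wwtr1 thus lay above 83.5% of tested genes and Lats1 above 35.8%. Neighbours in this order mostly did not differ beyond their spread: the ranges over the 6 hearts were separate only between Sav1 and Stk3 and between Lats2 and Lats1. Within a heart the order was firmer for some pairs, since Wwtr1 was above Yap1, Cyr61 above Tead1 and Stk3 above Stk4 in 6 of 6 hearts, while Ctgf was above Wwtr1 in 3 of 6.

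Stk3 and Stk4 (also called MST2 and MST1) are the kinases at the head of the cascade. Stk3, on chromosome 15 at 34875496 to 35178921 (GRCm38, GENCODE M21, minus strand), was at 17.4, 15.3 and 17.3 TPM in Paro/Neo hearts, against 18.3, 20.0 and 21.5 TPM in vehicle hearts. Each Paro/Neo heart lay below each vehicle heart, by a narrow gap. The log2 change was -0.25 ± 0.11 (SE), with a 95% interval of -0.50 to 0.01 and an adjusted p of 0.661 by limma. Transcripts of Stk3 have the lowest GC content of the members, 41.3%, and after correction for GC content the change was -0.32 (adjusted p 0.454, unadjusted p 0.0145 by limma). Stk4, on chromosome 2 at 164070322 to 164155524, was at 15.1, 14.1 and 14.7 TPM in Paro/Neo hearts, against 15.5, 13.5 and 16.2 TPM in vehicle hearts, with the treated values inside the vehicle range. Its log2 change was -0.04 ± 0.11 (SE; 95% interval -0.29 to 0.22, adjusted p 0.95). The ratio of Stk3 to Stk4 was 1.14 ± 0.0438 in Paro/Neo hearts and 1.33 ± 0.154 in vehicle hearts (SD, n = 3 each), and the groups nearly touched, with 1.17 as the highest Paro/Neo value and 1.18 as the lowest vehicle value.

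Sav1 (Salvador), the scaffold that joins these kinases to Lats1 and Lats2, had the only mean above vehicle by more than a few percent. The gene lies on chromosome 12 at 69965012 to 69987002 (minus strand). It was at 37.4, 26.2 and 28.9 TPM in Paro/Neo hearts, against 26.0, 25.3 and 24.7 TPM in vehicle hearts. The groups did not overlap, but the gap was narrow and the value of Paro/Neo replicate 1 stood far above the other 5. The log2 change was 0.26 ± 0.14 (SE), with a 95% interval of -0.06 to 0.58 and an adjusted p of 0.708, and it was 0.11 without Paro/Neo replicate 1. Transcripts of Sav1 have a GC content of 41.6%, near the low end of the 41.3% to 55.9% among the members, and the change was 0.19 after correction for GC content. Exons of Atl1 on the opposite strand cover 25.38% of its exon bases. Atl1 itself was at 3.08 to 4.44 TPM in Paro/Neo hearts and 2.89 to 4.16 TPM in vehicle hearts. Its share in the reads of Sav1 was not tested.

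Lats1 and Lats2, the kinases that phosphorylate Yap1 and Wwtr1, were the members with the lowest levels. Lats1, on chromosome 10 at 7681214 to 7716460, was at 7.86, 6.88 and 6.91 TPM in Paro/Neo hearts, against 7.40, 7.74 and 7.27 TPM in vehicle hearts, and the groups overlapped. Its log2 change was -0.05 ± 0.11 (SE; 95% interval -0.30 to 0.21, adjusted p 0.933), and -0.10 without Paro/Neo replicate 1. Lats2, on chromosome 14 at 57689662 to 57758388 (minus strand), was at 13.7, 12.5 and 15.4 TPM in Paro/Neo hearts, against 13.0, 14.9 and 12.7 TPM in vehicle hearts, again with overlap. Its log2 change was 0.03 ± 0.12 (SE; 95% interval -0.25 to 0.31, adjusted p 0.953). An annotated transcript on the same strand, Gm49361, shares 42.39% of the exon bases of Lats2, so the level of Lats2 is uncertain where the counting left out or split shared reads. Lats2 stood above Lats1 in every heart, by a ratio of 1.93 ± 0.26 in Paro/Neo and 1.81 ± 0.102 in vehicle hearts (SD, n = 3 each). Summed over Stk3, Stk4, Sav1, Lats1 and Lats2, the level was 83.2 ± 8.28 TPM in Paro/Neo hearts and 81.4 ± 1.16 TPM in vehicle hearts.

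**Figure D2:**
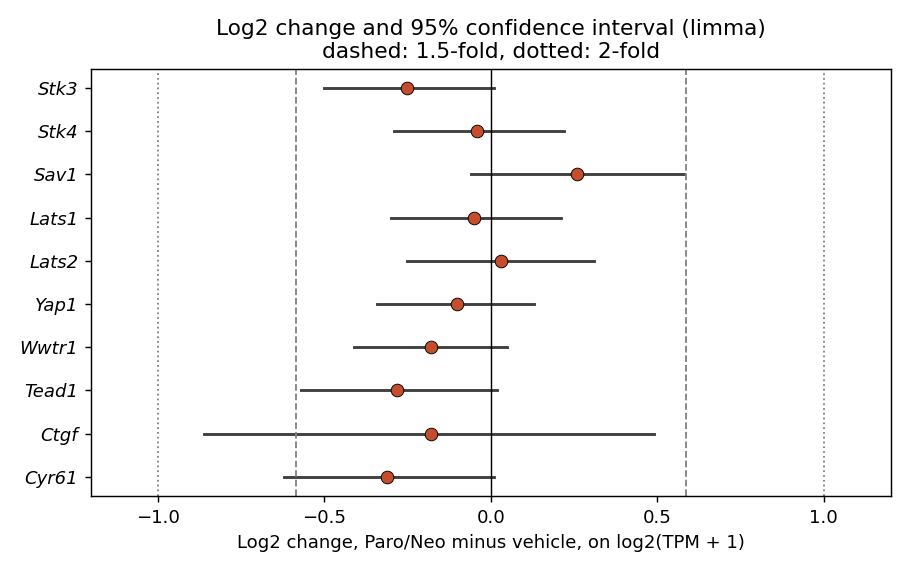
Log2 change of each gene, Paro/Neo minus vehicle, on log2(TPM + 1) (x axis; points) with its 95% confidence interval (lines), by gene (y axis); dashed lines mark 1.5-fold and dotted lines 2-fold. All 10 intervals include 0 and lie within 2-fold, and the interval of Ctgf is the widest, from -0.86 to 0.49.

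Yap1 and Wwtr1, the coactivators that the kinases restrain, had similar levels to each other. Yap1, on chromosome 9 at 7931999 to 8004596 (minus strand), was at 50.8, 51.6 and 52.4 TPM in Paro/Neo hearts, against 51.1, 61.7 and 54.3 TPM in vehicle hearts. The treated hearts lay close together, with a coefficient of variation of 1.6%, at the low end of the vehicle values. So small a spread of 3 values lies under the counting error of Yap1, 3.0% at its fewest inferred reads. The log2 change was -0.10 ± 0.10 (SE), with a 95% interval of -0.34 to 0.13 and an adjusted p of 0.816. It was -0.03 without vehicle replicate 2 and -0.16 without vehicle replicate 1. Wwtr1, on chromosome 3 at 57455649 to 57575910 (minus strand), was at 54.8, 60.1 and 59.0 TPM in Paro/Neo hearts, against 59.9, 70.4 and 67.4 TPM in vehicle hearts. The groups overlapped by 1 pair of nearly equal values, and the log2 change was -0.18 ± 0.10 (SE; 95% interval -0.41 to 0.05, adjusted p 0.718). The ratio of Wwtr1 to Yap1 was 1.12 ± 0.0428 in Paro/Neo hearts and 1.19 ± 0.0521 in vehicle hearts (SD, n = 3 each), with overlap. Summed, the coactivators were at 109.6 ± 3.43 TPM in Paro/Neo hearts and 121.6 ± 10.5 TPM in vehicle hearts.

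Tead1, the TEAD factor through which Yap1 and Wwtr1 reach DNA, was at 24.4, 29.2 and 33.3 TPM in Paro/Neo hearts, against 36.6, 34.2 and 34.3 TPM in vehicle hearts. Each treated heart lay below each vehicle heart, Paro/Neo replicate 1 lowest and replicate 3 just under the vehicle values. The log2 change was -0.28 ± 0.13 (SE), with a 95% interval of -0.57 to 0.02 and an adjusted p of 0.672, and it was -0.16 without Paro/Neo replicate 1. The gene lies on chromosome 7 at 112679318 to 112906807. Tead1 made up 79.3% ± 1.47 of the summed TPM of Tead1, Tead2, Tead3 and Tead4 in Paro/Neo hearts and 82.2% ± 1.79 in vehicle hearts (SD, n = 3 each), so it was the main TEAD mRNA in both groups.

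Ctgf and Cyr61 encode secreted matricellular proteins of the CCN family and are widely used as readouts of Yap1 and TEAD activity. Cyr61, on chromosome 3 at 145646976 to 145649981 (minus strand), was at 37.1, 43.2 and 35.6 TPM in Paro/Neo hearts, against 56.6, 43.1 and 44.7 TPM in vehicle hearts. The groups overlapped only through Paro/Neo replicate 2 and vehicle replicate 2, whose values were nearly equal. The log2 change of -0.31 ± 0.14 (SE) had the smallest unadjusted p of the members, 0.0537, with a 95% interval of -0.62 to 0.01 and an adjusted p of 0.657. It was -0.19 without vehicle replicate 1. Ctgf, on chromosome 10 at 24595442 to 24598683, was at 38.2, 66.5 and 70.0 TPM in Paro/Neo hearts, against 50.3, 54.4 and 95.6 TPM in vehicle hearts. The groups overlapped widely, with the lowest value in Paro/Neo replicate 1 and the highest in vehicle replicate 3. The log2 change was -0.18 ± 0.29 (SE; 95% interval -0.86 to 0.49, adjusted p 0.885), and its sign depended on those hearts, being 0.09 without Paro/Neo replicate 1 and 0.10 without vehicle replicate 3. Ctgf was the least reproducible member, with a coefficient of variation of 29.9% in Paro/Neo and 37.5% in vehicle hearts. Exons of Gm15270 on the opposite strand cover 23.24% of its exon bases. The targets did not move together over the hearts, since vehicle replicate 1 was highest for Cyr61 and lowest of its group for Ctgf.

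**Figure D3:**
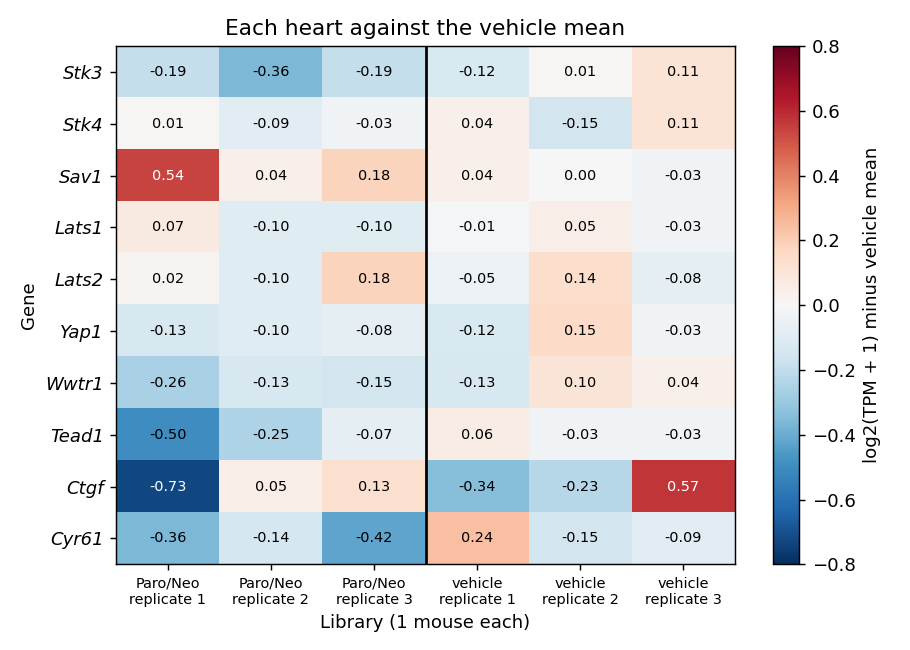
Log2(TPM + 1) of each gene (rows) in each heart (columns, Paro/Neo left of the line and vehicle right) minus the mean of the vehicle hearts, red above and blue below. Paro/Neo replicate 1 holds the lowest values of Ctgf (-0.73) and Tead1 (-0.50) and the highest of Sav1 (0.54).

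TEAD factors bind the motif GGAATG, read as CATTCC on the other strand. It was looked for on both strands of the 250 bases before the annotated start of each gene (RefSeq on GRCm38.p6, the first listed start), a window found for 7 of the 10 members, all but Tead1, Stk3 and Ctgf. The motif occurred in 4 of these 7, namely Cyr61, Yap1, Wwtr1 and Sav1, each 1 time, where 12.6% of 32851 such windows held it. These 32851 are all listed windows, not only the first of each gene. For Lats2 and Stk4, which lacked the motif, the windows lie inside the genes as placed above, at chr14:57746124-57746373 and chr2:164073888-164074137. It begins 103 bases before the start in Cyr61, 141 in Yap1, 136 in Wwtr1 and 106 in Sav1. The windows of the target and of both coactivators are shown, since these genes encode a TEAD target and the partners of TEAD factors, with the motif in capitals. They are written 5′ to 3′ on the gene's strand, the minus strand in each case, at chr3:145649986-145650235 for Cyr61, chr9:8004597-8004846 for Yap1 and chr3:57575911-57576160 for Wwtr1.
Cyr61: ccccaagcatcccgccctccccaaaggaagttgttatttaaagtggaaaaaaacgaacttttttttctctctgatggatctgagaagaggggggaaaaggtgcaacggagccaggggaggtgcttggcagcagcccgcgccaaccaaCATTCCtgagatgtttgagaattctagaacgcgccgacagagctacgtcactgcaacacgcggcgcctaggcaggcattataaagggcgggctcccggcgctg
Yap1: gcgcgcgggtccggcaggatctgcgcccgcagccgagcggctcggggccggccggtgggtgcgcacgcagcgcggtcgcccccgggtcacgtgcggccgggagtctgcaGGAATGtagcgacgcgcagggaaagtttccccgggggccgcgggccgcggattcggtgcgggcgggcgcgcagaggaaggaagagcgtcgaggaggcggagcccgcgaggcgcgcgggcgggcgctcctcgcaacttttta
Wwtr1: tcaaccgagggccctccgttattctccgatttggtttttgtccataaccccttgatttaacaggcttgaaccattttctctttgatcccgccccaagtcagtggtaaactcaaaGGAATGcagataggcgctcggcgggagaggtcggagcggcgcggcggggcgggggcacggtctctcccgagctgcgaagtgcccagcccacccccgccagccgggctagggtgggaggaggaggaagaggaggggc
A match of letters is a description and does not show binding in these hearts. By level, the 3 genes shown stood at 43.4, 53.6 and 61.9 TPM, and Sav1, which also holds the motif, at 28.1 TPM. Ctgf, the member with the highest level, had no window. A link between motif and level was not tested.

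Other components of the pathway did not pass either. Of 13 tested genes among 15 further core components, 6 had a log2 change above 0 and 7 below, 0 passed by limma (0 at an unadjusted p under 0.05), and the median was -0.03. Leaving out Paro/Neo replicate 1 gave 4 changes above 0 and 9 below, and a median of -0.07. The smallest p belonged to Mob1b, a coactivator of the Lats kinases, at 26.7, 12.9 and 13.0 TPM in Paro/Neo hearts and 10.7, 11.6 and 11.8 TPM in vehicle hearts (adjusted p 0.698 by limma). Its treated values lay above its vehicle values, that of Paro/Neo replicate 1 far above. No other of the 13 had groups without overlap, where 14.3% of all tested genes did not overlap. Mob1a, the paralog of Mob1b, was likewise highest in Paro/Neo replicate 1, at 40.5 TPM, against 20.4 to 27.6 TPM in the other 5 hearts. The next smallest p belonged to Frmd6, an upstream activator of the pathway, at 19.3 ± 2.15 TPM in Paro/Neo and 21.6 ± 1.87 TPM in vehicle hearts, and to Stk38, a kinase related to Lats1, at 22.4 ± 1.53 TPM in Paro/Neo and 24.6 ± 1.48 TPM in vehicle hearts (SD, n = 3 each; adjusted p 0.778 and 0.78 by limma).

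Among 17 tested inhibitors and scaffolds, 8 had a log2 change above 0 and 9 below, with a median of -0.03. None passed by limma and 1 had an unadjusted p under 0.05, where 7.61% of all tested genes did. The 1 inhibitor was Vgll4, which competes with Yap1 for TEAD factors, at 10.1, 8.45 and 8.37 TPM in Paro/Neo hearts, against 7.66, 5.99 and 6.62 TPM in vehicle hearts. Each treated heart lay above each vehicle heart, and the log2 change was 0.36 ± 0.13 (SE; adjusted p 0.565). Vgll4 was the only 1 of the 17 without overlap of the groups, where 14.3% of all tested genes did not overlap. Slmap and Strn3, subunits of a phosphatase complex that switches off Stk3 and Stk4, had overlapping groups. Slmap was at 249.2 ± 44.9 TPM in Paro/Neo and 206.4 ± 18.8 TPM in vehicle hearts (adjusted p 0.708 by limma), and Strn3 at 165.2 ± 22.8 TPM in Paro/Neo and 147.3 ± 5.77 TPM in vehicle hearts (adjusted p 0.77; SD, n = 3 each). Without Paro/Neo replicate 1, 12 of the 17 had a change above 0 and 5 below, with a median of 0.05. No inhibitor or scaffold had an unadjusted p under 0.05 without that library, or without vehicle replicate 3.

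Further target genes of Yap1, taken from a signature of human cancers and from the heart, numbered 17 tested of 19 and had 4 changes above 0 and 13 below, with a median of -0.10. Of all tested genes, 53.7% had a change below 0. None of the targets passed by limma and 2, both below 0, had an unadjusted p under 0.05, where 7.61% of all tested genes did. Ccdc80, a secreted matrix protein, was at 48.1, 91.4 and 82.8 TPM in Paro/Neo hearts, against 119.8, 111.6 and 117.6 TPM in vehicle hearts, a log2 change of -0.70 ± 0.22 (SE; adjusted p 0.49). Myof, a membrane repair protein, was at 3.40 ± 0.642 TPM in Paro/Neo hearts and 4.61 ± 0.405 TPM in vehicle hearts (adjusted p 0.643 by limma), and Rbms3, an RNA-binding protein, at 6.28 ± 1.32 TPM in Paro/Neo and 7.5 ± 0.481 TPM in vehicle hearts (adjusted p 0.74; SD, n = 3 each). The treated values of Ccdc80, Myof and Dock5 lay below all vehicle values. The groups thus did not overlap for 3 of the 17, where 14.3% of all tested genes did not overlap. Ankrd1, a cardiac stress gene and Yap1 target, was the most abundant, at 5672 ± 627 TPM in Paro/Neo and 6447 ± 1740 TPM in vehicle hearts (adjusted p 0.849 by limma). Amotl2 and Ptpn14 are counted among both the inhibitors and the targets. Without Paro/Neo replicate 1 the targets had 7 changes above 0 and 10 below, with a median of -0.01, and 1 unadjusted p under 0.05, as there was without vehicle replicate 3. These fits had 905 and 752 of 12409 tested genes at that level.

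**Figure D4:**
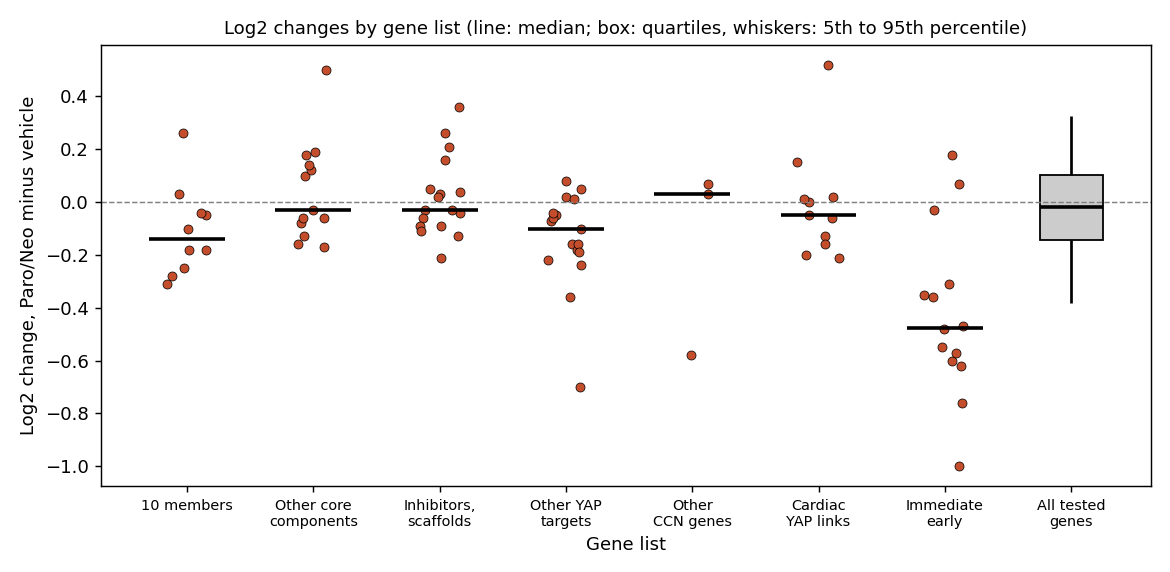
Log2 change, Paro/Neo minus vehicle (y axis), of the tested genes of each list (x axis; points, with the median as a line) beside all 12409 tested genes (box, quartiles; whiskers, 5th to 95th percentile). The medians of the pathway lists lie between -0.14 and 0.03, and that of the immediate early genes at -0.48.

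Of the other CCN genes, 3 of 4 were tested and none passed by limma (0 at an unadjusted p under 0.05). Wisp2 was at 6.82 ± 2.49 TPM in Paro/Neo and 10.7 ± 4.01 TPM in vehicle hearts, Nov at 7.82 ± 1.99 TPM in Paro/Neo and 7.42 ± 2.01 TPM in vehicle hearts, and Wisp1 at 1.21 ± 0.427 TPM in Paro/Neo and 1.15 ± 0.435 TPM in vehicle hearts (SD, n = 3 each). The groups overlapped in all 3. The median log2 change was 0.03, and 0.20 without Paro/Neo replicate 1. Wisp3 was listed at 0 in every library.

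Cyr61 and Ctgf are also induced rapidly by serum and growth factors, as immediate early genes are. Of 14 tested immediate early genes 12 had a log2 change below 0 and 2 above, with a median of -0.48, where 53.7% of all tested genes were below 0. None of the 14 passed by limma and 5 had an unadjusted p under 0.05, where 7.61% of all tested genes did. Btg2, an inhibitor of proliferation, was at 18.5 ± 2.08 TPM in Paro/Neo and 29.2 ± 5.66 TPM in vehicle hearts (adjusted p 0.343). Jun, a subunit of the factor AP-1, was at 17.3 ± 2.1 TPM in Paro/Neo and 26.0 ± 4.62 TPM in vehicle hearts (adjusted p 0.397), and Egr1, a zinc finger factor, at 7.58 ± 3.21 TPM in Paro/Neo and 13.0 ± 1.93 TPM in vehicle hearts (adjusted p 0.496 by limma; SD, n = 3 each). The median was -0.29 without Paro/Neo replicate 1, where 4 had an unadjusted p under 0.05, and 8 had one without vehicle replicate 3. These fits had 905 and 752 of 12409 tested genes at that level. The part of the immediate early shift in the values of Cyr61 was not tested.

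Ctgf, Cyr61, Yap1 and Wwtr1 are made by several cell types of the ventricle, whose markers were read as lists. Fibroblast markers had 8 of 8 changes below 0, and summed to 2227 to 2465 TPM in Paro/Neo hearts and 2506 to 2642 TPM in vehicle hearts. Dcn dominated this sum, but its log2 change was only -0.02. Lum and Pdgfra changed by -0.03 and -0.11, and the groups overlapped for these and for Dcn. The matrix genes Col1a1, Col1a2, Col3a1 and Postn changed by -0.83, -0.78, -0.82 and -0.66, and Tcf21 by -0.30, without overlap. Endothelial markers had 7 of 8 below 0, summing to 451.8 to 578.4 TPM in Paro/Neo and 568.5 to 653.3 TPM in vehicle hearts. Smooth muscle and pericyte markers had 6 of 8 below 0, summing to 397.5 to 692.5 TPM in Paro/Neo and 447.7 to 544.0 TPM in vehicle hearts. Rgs5 dominated this sum, and at 609.5 TPM in Paro/Neo replicate 1 it made the highest one. Myh11, Acta2, Pdgfrb and Cspg4 had their lowest values in that heart. Macrophage markers had 7 of 8 above 0, summing to 588.0 to 652.7 TPM in Paro/Neo and 497.2 to 617.1 TPM in vehicle hearts. Lyz2 dominated this sum, with 441.2 TPM in Paro/Neo replicate 1, where the sum was highest. Cardiomyocyte markers had 3 of 8 above 0, and summed to 94231 to 130077 TPM in Paro/Neo and 110605 to 117745 TPM in vehicle hearts. Of 6 epicardial markers 2 were high enough to test, both below 0, and 3, Upk1b, Msln and Krt19, were at 0 in some library; the sum was 4.62 to 8.04 TPM in Paro/Neo and 10.2 to 12.4 TPM in vehicle hearts. None of these markers passed the threshold by limma. An unadjusted p under 0.05 was found for 4 fibroblast, 2 endothelial, 1 macrophage and 2 epicardial markers. Over all tested genes, 53.7% had a change below 0 and 7.61% an unadjusted p under 0.05. Without Paro/Neo replicate 1, 6 of 8 fibroblast markers had a change below 0. The unadjusted count was then 4 fibroblast, 0 endothelial, 3 macrophage, 2 epicardial, 1 cardiomyocyte and 1 smooth muscle or pericyte marker, and 905 of 12409 tested genes. The part of these cell types in the values of the members was not tested.

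Likeness of pattern was measured as the root mean square difference of the centred log2(TPM + 1) values over the 6 hearts, among the 12409 tested genes. The closest genes to Yap1 were Zfpm1, Adam10 and Cstb, at 0.0145, 0.0292 and 0.0294. Those closest to Cyr61 were Tnfsf13, Scrn1 and Ndn, at 0.0587, 0.0642 and 0.0653, and those closest to Ctgf were Myoc, Dpp7 and Fam107a, at 0.112, 0.135 and 0.162. Levels were 2.06 to 2.71 TPM for Zfpm1, and 39.8 to 71.7 TPM for Adam10 and Cstb. They were 4.52 to 22.0 TPM for the genes closest to Cyr61 and 1.38 to 9.0 TPM for those closest to Ctgf. On log2(TPM + 1) the changes of low genes come out too small, so closeness to such a gene does not mean equal fold changes. With 12409 candidates and 6 hearts such closeness is a description only.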

How the data were processed

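The deposited table gives TPM values by the authors, 1 column per mouse, over 18158 features. STAR 2.5.3a, FastQC 0.11.5, edgeR, Subread and featureCounts, and the mm10 build, are named without a role in the submitters' processing notes. Which annotation and strand setting served for counting is not given in the sources used here. Per the labels' protocols, libraries were stranded mRNA. Groups and replicate numbers came from sample titles, while the library names in the descriptions number the treated mice otherwise.

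A gene entered the test with 1 TPM in 3 or more of the 6 libraries, which left 12409, all 10 members among them. The test was limma (version 3.58.1, R 4.3.3) on log2(TPM + 1), where changes of low genes come out too small (eBayes with intensity trend, two-sided, Benjamini-Hochberg, threshold 0.05). The fit was tested on simulated data with independent noise in each gene and changes of 2-fold or more. Smaller changes, as in the members, and a library that stands apart were not simulated. Whole reads were inferred from the ratios of TPM between libraries, for 17574 of 17574 features above 0 within 0.001 of a read. They are lower estimates and were used for depth and counting error only. Counting error covers reads, not molecules. Annotation was GENCODE M21 (GRCm38, which is mm10).

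All members are named. From other lists, the 3 genes with the smallest p are named where none passed. Ankrd1, Dock5, Meis1, Mob1a, Wisp3 and the markers were named outside this rule, after their values were seen. Members and lists were chosen with earlier results of these data known, so lists got counts and medians and no test. Alternatives were a pseudocount of 0.1, no filter, a filter of 5 TPM, median-of-ratios scaling, array weights, a replicate block, no trend, each library left out and, chosen after seeing the data, a GC correction.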

Additional observations from a re-analysis of the deposited data

How the results depend on the processing

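Under 14 alternatives, 0 of 10 members passed the threshold, and the smallest adjusted p of any member was 0.392 (limma), for Stk3 with array weights. Dropping or raising the filter, dropping the trend and adding the replicate block cannot change a member's estimate. Their signs were thus fixed in advance. Of 140 member values, these included, 134 kept their sign. The others were Ctgf at 0.02 with array weights, and Ctgf, Lats2 and Stk4 with a library left out, whose ranges were -0.35 to 0.10, -0.04 to 0.10 and -0.11 to 0.02. Leaving out each library in turn gave 4 to 23 higher and 0 to 4 lower genes, against 15 and 2 with all 6. Higher genes numbered 5 without a filter, 8 without the trend and 25 with the replicate block, and lower genes 1 without a filter, 1 with the filter of 5 TPM, 1 without the trend and 4 with array weights. With the replicate block, 0 of 10 members passed (limma; 0 at an unadjusted p under 0.05). Elsewhere an unadjusted p under 0.05 was found for Stk3 and Tead1 with array weights, Stk3 with the GC correction and without Paro/Neo replicate 1, Sav1 and Cyr61 without Paro/Neo replicate 2, Tead1 without Paro/Neo replicate 3 and Cyr61 without vehicle replicate 2. At that level stood 703 to 1142 of all tested genes with a library left out, 1222 with array weights and 1008 with the GC correction. The labels give same-numbered mice no shared origin, and their libraries correlated at -0.0528, -0.0356 and -0.122 in their deviations from the group means, so they were not treated as pairs. Library names number the treated mice otherwise than titles. By name, Paro/Neo replicate 1 would match vehicle replicate 2, and Paro/Neo replicate 2 vehicle replicate 3. These correlated at -0.0519 and 0.0107, and a block by library name was not run. List medians with a library left out ran from -0.07 to 0.06 for the other core components, -0.05 to 0.05 for inhibitors and scaffolds, and -0.12 to 0.03 for cardiac links. With the filter of 5 TPM the medians were 0.03 for core components, 0.05 for inhibitors and -0.25 for CCN genes, where fewer genes were tested, and with array weights 0.04 for inhibitors. The causes of the other shifts were not tested. With 3 hearts per group, the intervals leave room for changes under 1.5-fold in 8 members. As a ratio of Paro/Neo to vehicle they run from 0.552 to 1.41 in Ctgf and from 0.652 to 1.0 in Cyr61.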

Other observations

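Genes tied to Yap1 in heart muscle were also read. In the mouse heart the matrix protein agrin (Agrn) and the dystrophin glycoprotein complex are known to bear on Yap1 in cardiomyocytes. Of 11 tested genes of this kind 5 had a log2 change above 0 and 6 below, with a median of -0.05, and none passed by limma (0 at an unadjusted p under 0.05). Without Paro/Neo replicate 1, 6 were above 0 and 5 below, with a median of 0.03. There 1 had an unadjusted p under 0.05, as did 905 of 12409 tested genes. Sgcd, a sarcoglycan of the complex, was at 120.3, 65.1 and 53.4 TPM in Paro/Neo hearts, against 53.9, 44.4 and 58.4 TPM in vehicle hearts, with Paro/Neo replicate 1 far above the other 5 and an adjusted p of 0.704. Ctnnb1, which encodes beta-catenin, was at 259.8, 296.2 and 308.9 TPM in Paro/Neo hearts, against 320.1, 334.2 and 312.9 TPM in vehicle hearts. Each treated heart lay below each vehicle heart, with a log2 change of -0.16 ± 0.10 (SE; adjusted p 0.73 by limma). Ctnnb1 was the only 1 of the 11 without overlap of the groups, where 14.3% of all tested genes did not overlap. Utrn, which encodes utrophin, was at 18.6 ± 0.926 TPM in Paro/Neo and 20.6 ± 1.71 TPM in vehicle hearts (SD, n = 3 each; adjusted p 0.778 by limma). Dag1, the dystroglycan gene, was at 65.1 ± 10.5 TPM in Paro/Neo and 58.2 ± 4.06 TPM in vehicle hearts (SD, n = 3 each), and was named after its value was seen. The mRNA of Meis1 was at 10.5, 10.9 and 12.6 TPM in Paro/Neo hearts, against 10.9, 12.1 and 10.6 TPM in vehicle hearts. Its log2 change was 0.01 ± 0.12 (SE; adjusted p 0.991 by limma). The Meis1 protein and its activity were not measured.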
